A study of Mus musculus with 2 samples.

Results

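Mast cells and basophils store proteases in their granules, and 6 genes that encode them were examined here across the cells of inflamed mouse ear skin: Mcpt8, Mcpt4, Cma1, Tpsb2, Tpsab1 and Cpa3. They were chosen by name, and all 6 were found among the 35208 gene rows of the expression matrix. Ear skin was taken from young adult male mice on the BALB/c background that were wild-type (WT) or Ccr2-/-, the latter lacking the chemokine receptor that monocytes use to leave the bone marrow. All of them were sensitized intravenously with 300 µg of anti-TNP IgE, TNP being a small hapten, and 10 µg of TNP-conjugated ovalbumin was injected into the ear, which was collected on day 3 or day 5. The 4 combinations of genotype and day were stained with 1 hashtag antibody each, mixed, and sequenced as a single library, so that each combination is 1 pool without a replicate, and the number of mice in a pool is not given in the sources used here. Values are reads per 1000000 reads (CPM) summed over the cells of a type, with exact Poisson 95% intervals. The intervals cover the counting of reads only. They do not cover PCR copying or the spread between cells, mice or pools, so intervals that do not overlap are no test of a difference.

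Mast cell proteases fall into chymases and tryptases, both serine proteases, and carboxypeptidase A3. Chymases cleave after aromatic residues and tryptases after basic residues, and all are stored bound to the heparin-rich core of the granule and released when IgE receptors are cross-linked. Connective tissue mast cells, the type found in skin, are known for Mcpt4, Cma1, Tpsb2, Tpsab1 and Cpa3, whereas Mcpt8 is a protease of the mouse basophil.

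Hashtags assigned 7118 cells that passed the filters, of which the WT pools held 1543 (day 3) and 1037 (day 5) and the Ccr2-/- pools 2191 (day 3) and 2347 (day 5), and the median depth was between 18632 and 48232 reads per cell by pool. Clustering left the 6 proteases out. A cluster of 155 cells carried the basophil markers Cd200r3, Il4, Itga2 and Cyp11a1, with Cd200r3 reads in 83.9% of its cells and Kit reads in 1.94%. The other 4 listed markers, Gata2, Ms4a2, Fcer1a and Hdc, are shared by both types. A cluster of 111 cells carried the mast cell markers Kit, in 81.1% of its cells, and Mrgprb1, in 89.2%. The basophil list did not separate the types gene by gene, since Cd200r3 reads were found in 76.6% of mast cell-like cells, and Cyp11a1 (1809 against 1537 CPM), Ms4a2 (1205 against 691 CPM) and Fcer1a (1635 against 307 CPM) were higher in mast cell-like than in basophil-like cells. Il4 (1777 against 144 CPM) and Itga2 (290 against 72.0 CPM) were higher in basophil-like cells. These are called basophil-like and mast cell-like cells. Their numbers limit every value below, since WT day 5 held 2 basophil-like cells and the WT pools held 9 and 10 mast cell-like cells on day 3 and day 5.

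In GENCODE annotation M21 on GRCm38, Cma1 (chromosome 14, 55941451 to 55944675), Mcpt4 (56059629 to 56062313) and Mcpt8 (56082166 to 56085273) lie on the minus strand of 1 chymase locus. Only 19852 bases separate Mcpt4, highest in mast cell-like cells, from Mcpt8, highest in basophil-like cells. Tpsab1 (chromosome 17, 25343245 to 25345562, minus strand) and Tpsb2 (25366305 to 25369098, plus strand) are 20742 bases apart, and Cpa3 lies alone on chromosome 3 (20215620 to 20242181, minus strand). The sequence just before the start of 4 of the genes is shown because neighbours of 1 locus differed in the cell type that held their reads. Each is from RefSeq (GRCm38.p6), reads 5' to 3' on the strand of the gene and stops before the first annotated exon, and capitals mark GATAA or its reverse TTATC, letters that GATA factors are known to bind.

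Mcpt8 (chr14:56085274-56085447): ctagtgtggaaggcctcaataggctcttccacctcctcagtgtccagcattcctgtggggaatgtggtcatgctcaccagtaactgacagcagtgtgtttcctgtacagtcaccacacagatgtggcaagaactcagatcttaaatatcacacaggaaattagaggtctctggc

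Mcpt4 (chr14:56062314-56062560): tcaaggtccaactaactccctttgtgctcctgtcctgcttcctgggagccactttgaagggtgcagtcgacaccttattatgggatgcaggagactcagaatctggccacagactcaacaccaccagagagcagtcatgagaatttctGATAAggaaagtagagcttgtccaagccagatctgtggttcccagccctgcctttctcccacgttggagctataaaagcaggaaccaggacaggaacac

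Cma1 (chr14:55944676-55944925): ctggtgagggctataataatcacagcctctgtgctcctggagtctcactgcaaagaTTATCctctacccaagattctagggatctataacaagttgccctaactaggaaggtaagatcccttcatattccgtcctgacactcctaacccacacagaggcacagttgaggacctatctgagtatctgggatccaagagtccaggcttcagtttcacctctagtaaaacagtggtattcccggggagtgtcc

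Cpa3 (chr3:20242182-20242431): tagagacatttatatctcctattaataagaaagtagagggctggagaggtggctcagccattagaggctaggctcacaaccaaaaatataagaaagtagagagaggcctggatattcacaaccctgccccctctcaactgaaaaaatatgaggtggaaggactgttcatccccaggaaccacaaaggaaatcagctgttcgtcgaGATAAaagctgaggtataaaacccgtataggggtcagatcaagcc

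The 5 letters occurred once in Mcpt4, Cma1 and Cpa3, beginning 102, 194 and 45 bases before the start, and were not found in the 250 bases before the start of Mcpt8, of which the 174 outside its annotated exons are printed. Among all 32851 RefSeq promoters, 22.6% held them within 250 bases before the start on either strand. A second motif, CATGTG or its reverse CACATG, which MITF is known to bind, was in none of the 4 windows and in 12.3% of all promoters. A match is only a match of letters.

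Mcpt8 was the leading protease of basophil-like cells. It stood at 5516 CPM (5329 to 5707) in WT day 3, and in the Ccr2-/- pools it reached 8687 CPM on day 3 (8541 to 8834) and 9363 CPM on day 5 (9198 to 9530). The 2 basophil-like cells of WT day 5 gave 1752 CPM (1469 to 2074), all from 1 cell. A read of Mcpt8 was found in 148 of the 155 cells, and the level in single cells ranged from 0 to 38856 CPM with a median of 5969 CPM. In mast cell-like cells the level was 36.4 CPM in WT day 3, 1173 CPM in WT day 5, 160 CPM in Ccr2-/- day 3 and 362 CPM in Ccr2-/- day 5. The WT day 5 value rested on 1 cell of 10, and 67.0% of the Mcpt8 reads of mast cell-like cells in Ccr2-/- day 5 came from 1 cell of 35. Across all pools, basophil-like cells held 89.7% of the Mcpt8 reads and mast cell-like cells 6.13%.

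Mcpt4 is the mouse chymase closest in function to the human one. By summed reads it was the highest of the 6 in mast cell-like cells of both day 3 pools and over all pools. Cma1 was above Mcpt4 in both day 5 pools by summed reads. The level of Mcpt4 was 34133 CPM in WT day 3, 22871 CPM in WT day 5, 30449 CPM in Ccr2-/- day 3 and 20810 CPM in Ccr2-/- day 5. Both day 5 pools were below both day 3 pools. In basophil-like cells it did not exceed 8.37 CPM in any pool, against 6.43 to 29.0 CPM in 6 unrelated types. Cma1, a second chymase, stood at 21089, 24334, 23844 and 26136 CPM in the same order of pools. Both day 5 pools were above both day 3 pools. In WT day 5, 1 cell held 289671 of the 782679 reads summed, and the level in single cells gave another order. The median of Mcpt4 was 35084, 40983, 26185 and 22362 CPM over the 4 pools and that of Cma1 17573, 35357, 19438 and 22773 CPM. By this measure Mcpt4 was not lower on day 5 in WT, and it was above Cma1 in WT day 5.

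The tryptases Tpsb2 and Tpsab1 were also mast cell-like. Tpsb2 was at 7360 CPM in WT day 3, 9300 CPM in WT day 5, 6599 CPM in Ccr2-/- day 3 and 7902 CPM in Ccr2-/- day 5. Tpsab1 was at 12211, 12648, 21449 and 16807 CPM in that order, with both Ccr2-/- pools above both WT pools by summed reads. In WT day 5, 1 cell with 289671 of the 782679 reads summed had no read of either tryptase. In basophil-like cells Tpsb2 had 2.54 CPM and Tpsab1 2.26 CPM over all pools, within the 1.15 to 9.78 CPM of unrelated types for Tpsb2 and below their 3.36 to 5.90 CPM for Tpsab1. By the median of single mast cell-like cells, Tpsb2 stood at 10706, 14497, 3674 and 4375 CPM and Tpsab1 at 12937, 9580, 15539 and 11380 CPM. By these medians Tpsab1 was higher in WT day 3 than in Ccr2-/- day 5, so the order of the genotypes did not hold.

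Cpa3, carboxypeptidase A3, trims peptides from their C-terminal end and was the 1 protease with a sizeable level in both cell types. In mast cell-like cells it stood at 13420, 16684, 9192 and 14380 CPM in the same order of pools. In basophil-like cells it stood at 521 CPM in WT day 3, 1390 CPM in Ccr2-/- day 3 and 803 CPM in Ccr2-/- day 5, and at 51.9 CPM in the 2 cells of WT day 5. Without the cell with the most Cpa3 reads, the Ccr2-/- day 3 level was 1030 CPM. All of these were above the 1.35 to 11.9 CPM of unrelated types.

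**Figure D1:**
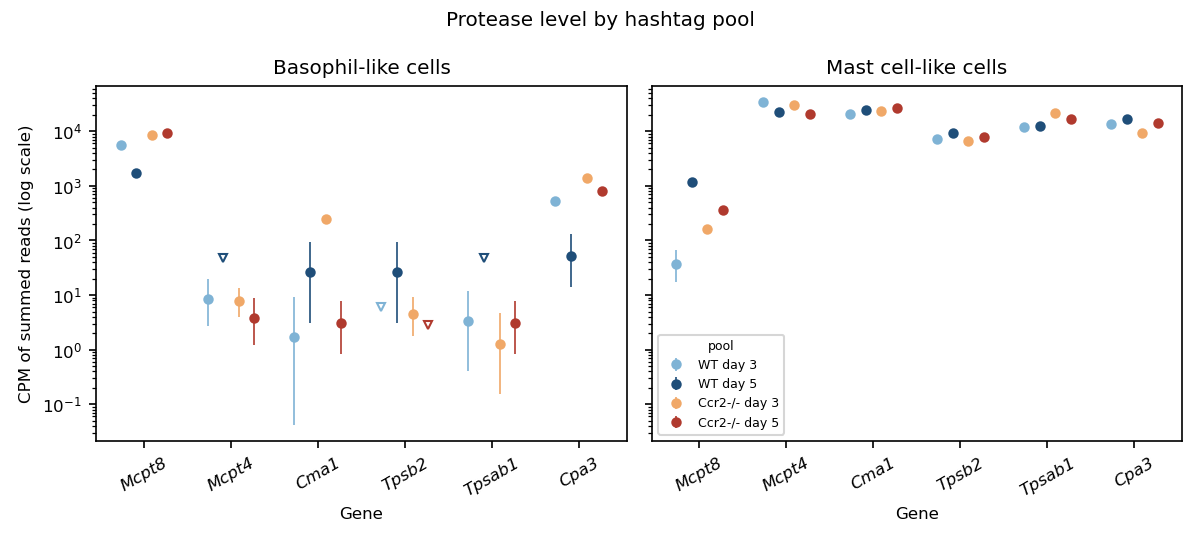
CPM of summed reads (log scale) of each protease by pool in basophil-like cells (left) and mast cell-like cells (right). Points are pools and bars are exact Poisson 95% intervals, and an open triangle marks the upper limit where no read was found. Mcpt8 is high on the left, at 5516 to 9363 CPM outside the 2-cell pool of WT day 5, and the other 5 are high on the right.

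Levels of different genes were set side by side per length, although it was not tested whether reads of this library scale with transcript length. Per 1000 bases of the reference transcript and over all pools, the order in mast cell-like cells was Mcpt4 (23712 CPM per kb), Cma1 (22861), Tpsab1 (9407), Cpa3 (8451), Tpsb2 (6909) and Mcpt8 (440 CPM per kb). Mcpt4 and Cma1 are neighbours in that order and changed places between pools by summed reads. The level of Mcpt4 per kb was above that of Cma1 in both day 3 pools and below it in both day 5 pools. In WT day 5 the medians of single cells given above had Mcpt4 above Cma1, so the summed order did not hold there. In basophil-like cells the order began with Mcpt8 (9870 CPM per kb) and Cpa3 (689 CPM per kb). The 6 proteases together took 8.90% of all reads of mast cell-like cells, between 8.64% and 9.17% by pool, and 0.937% of the reads of basophil-like cells. The medians of single mast cell-like cells lay further apart. They were 9.80% in WT day 3, 13.9% in WT day 5, 7.79% in Ccr2-/- day 3 and 6.70% in Ccr2-/- day 5.

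The difference between the 2 cell types was taken as the log2 ratio of basophil-like to mast cell-like CPM after adding 1 CPM. Only the Ccr2-/- pools held at least 10 cells of both types. There the ratio averaged 5.22 ± 0.75 (SD, n = 2 pools) for Mcpt8, −11.93 ± 0.21 for Mcpt4, −11.59 ± 1.92 for Tpsb2, −12.61 ± 0.84 for Tpsab1 and −3.44 ± 1.02 for Cpa3. For Cma1 it averaged −9.62 ± 4.30, because 1 basophil-like cell of Ccr2-/- day 3 held 96.7% of the Cma1 reads of that group. All 6 proteases differed more than 2-fold between the types in both pools, where 49.7% of all genes tested did so on day 3 and 54.2% on day 5, so the count itself says little beside the sizes. The pools are not replicates of 1 condition, and no test was made of these ratios.

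Reads of close relatives can be hard to assign. No stretch of 50 bases was shared between the transcripts of Mcpt8, Mcpt4 and Cma1 or between those of Tpsb2 and Tpsab1, whose main transcripts had 70.7% identical aligned bases. Mcpt4 shared 58 such stretches with Cma2 and Mcpt9, 5.48% of its own, and Cma1 shared 56 with the gene model Gm48934, 5.38% of its own, so a small part of the Mcpt4 and Cma1 reads could have been counted for either gene.

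RNA released from other cells can be read with any barcode, and the level in cells that should lack a gene was taken as a background. Such reads could also come from barcodes with more than 1 cell or from cells placed in the wrong cluster, which was not tested. In fibroblast-like, endothelial-like, keratinocyte-like, T cell-like, neutrophil-like and Mo-Mac-like cells, types not known to make the proteases, levels ranged from 0.384 to 5.82 CPM for Mcpt8 and 4.98 to 26.4 CPM for Cma1. Neutrophil-like cells were the highest of the 6 types for each member, and single cells held much of this. Without the cell with the most reads of the member, Mcpt4 there fell from 29.0 to 14.2 CPM and Cma1 from 26.4 to 15.5 CPM. Tpsb2 fell from 9.78 to 5.23, Cpa3 from 11.9 to 6.13, Mcpt8 from 5.82 to 3.88 and Tpsab1 from 5.90 to 4.79 CPM. A read of Mcpt4 was found in 45.5% of the 2192 fibroblast-like cells, whose median depth was 104038 reads. After each cell was thinned to 10000 reads, the share of cells with an Mcpt4 read lay between 4.55% and 7.92% in the 6 types. In fibroblast-like cells of WT day 3, Mcpt8 stood at 14.6 CPM against 0.81 to 1.0 CPM in the other pools, and at 0.639 CPM without 1 cell that held 95.7% of those reads.

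NK cell-like cells stood apart for 1 member. In the WT pools Cma1 was at 150 CPM on day 3 (133 to 168) and at 181 CPM on day 5 (155 to 211). In the Ccr2-/- pools it was 276 CPM on day 3 (261 to 292) and 329 CPM on day 5 (311.9 to 346.8). Mcpt4 in the same cells stood between 9.16 and 14.3 CPM, in the range of the unrelated types. Of the 369 NK cell-like cells, 131 had at least 100 CPM of Cma1, and 104 of those had no Mcpt4 read. In fibroblast-like cells, 9 of 2192 reached that level, but their median depth was 104038 reads against 22187 in NK cell-like cells. A cell of lower depth reaches 100 CPM with fewer reads, so these counts are not a comparison at equal depth. Among cells thinned as above, a Cma1 read was found in 38.4% of NK cell-like cells. The share lay between 4.69% and 6.93% in the 6 unrelated types. The limit of 100 CPM was chosen after the values were seen.

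**Figure D2:**
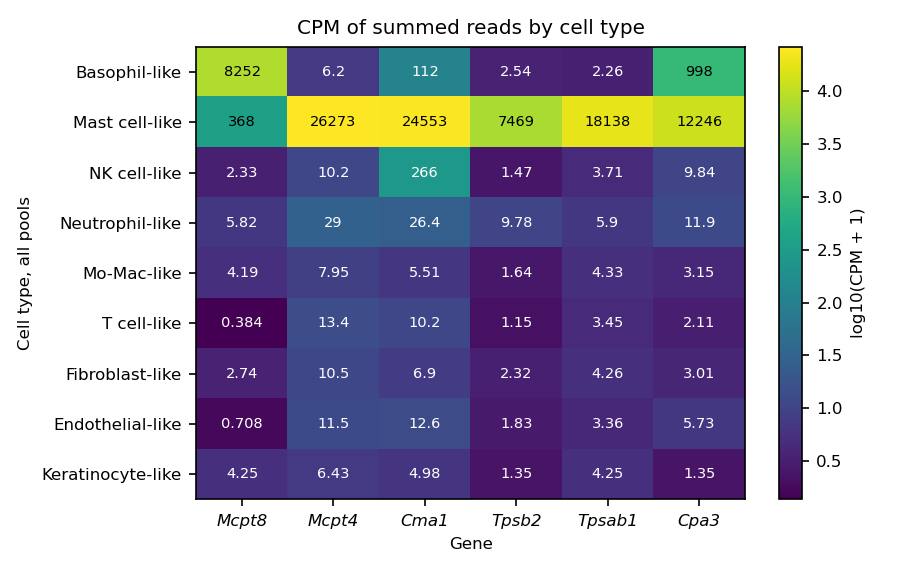
CPM of summed reads over all pools by cell type (rows) and gene (columns), with color on a log10 scale. Outside basophil-like and mast cell-like cells, the highest value is Cma1 in NK cell-like cells (266 CPM).

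Single mast cell-like cells mostly carried the whole set. A read of each of Mcpt4, Cma1, Tpsb2, Tpsab1 and Cpa3 was present in 96 of the 111 cells, or 86.5% (Clopper-Pearson 95% interval 78.7 to 92.2%). The interval takes cells as independent and does not cover the spread between mice or pools. By pool the cells with the whole set were 8 of 9 in WT day 3, 8 of 10 in WT day 5, 52 of 57 in Ccr2-/- day 3 and 28 of 35 in Ccr2-/- day 5. No read of either tryptase was found in 6 cells, 4 of them in Ccr2-/- day 5. Tpsab1 ranged from 0 to 119444 CPM with quartiles of 4330 and 28233 CPM, whereas Mcpt4 had quartiles of 16791 and 36567 CPM.

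Mcpt8 reached 1000 CPM in 4 mast cell-like cells, a set picked after the values were seen. In 3 of them no tryptase read was found, although Cma1 stood between 9894 and 28815 CPM and Cpa3 between 11694 and 20272 CPM. Mcpt4 in those 3 cells was at 4284, 1192 and 62.5 CPM, against a median of 27103 CPM in the other 107 mast cell-like cells. The same 3 cells held Gzmb, a granzyme of the chymase locus, at 9335, 11578 and 1438 CPM, while reads of Gzmb were also found in 31 of the other 107 cells, at up to 5600 CPM. They held Mcpt1, a chymase known from mucosal mast cells, at 1333, 142 and 1313 CPM. Reads of Mcpt1 were found in 3 of the other 107 cells, at no more than 17.5 CPM. One of the 3 cells had 289671 reads, the deepest of the WT day 5 mast cell-like cells, and whether such barcodes held more than 1 cell was not tested.

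**Figure D3:**
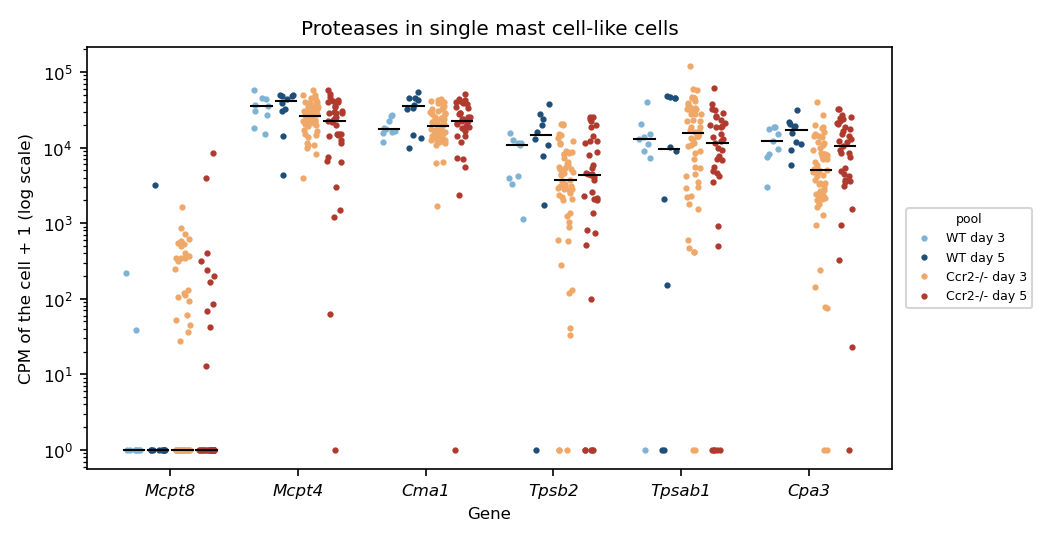
CPM plus 1 (log scale) of each protease in single mast cell-like cells, by pool, with the median as a black line. Mcpt8 has a median of 0 CPM in every pool, and 3 of the 4 cells above 1000 CPM lie in the day 5 pools.

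Cpa3 reads were found in only part of the basophil-like cells. At their median depth of 19175 reads, a cell without a read can still hold the transcript. Reads of both Mcpt8 and Cpa3 were found in 99 of the 155 cells, Mcpt8 alone in 49, Cpa3 alone in 3 and neither in 4. Cpa3 reads were found in 73.1% of the cells of WT day 3, 72.7% of Ccr2-/- day 3 and 55.7% of Ccr2-/- day 5. The median level in single cells was 453, 646 and 77.9 CPM in those pools. In Ccr2-/- day 3, 1 cell carried 9577 CPM of Cma1, 15384 CPM of Cpa3, 21828 CPM of Gzmb and 1554 CPM of the mast cell receptor Kit, beside 25.5 CPM of Mcpt8, so its transcripts went against its cluster.

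**Figure D4:**
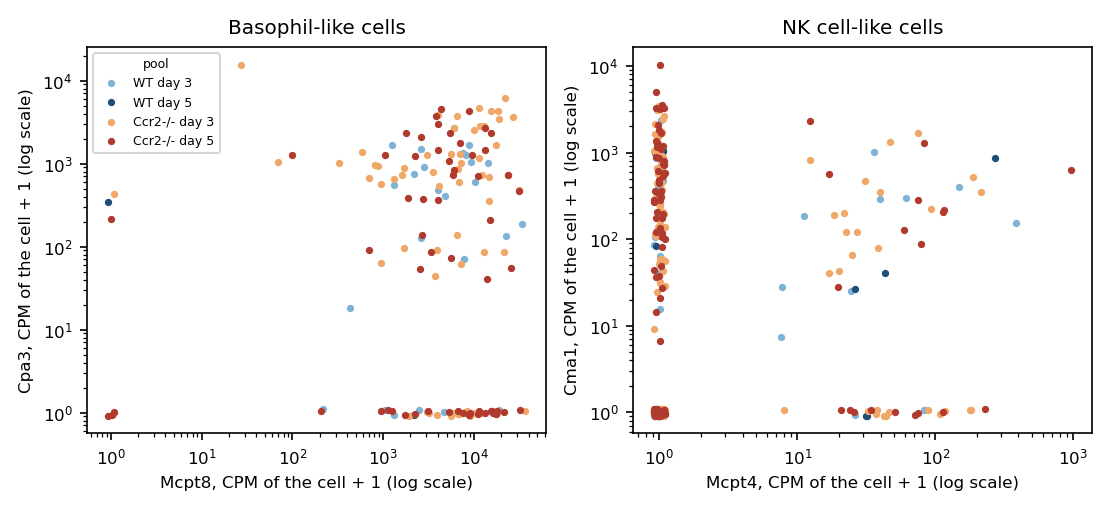
Left, Cpa3 against Mcpt8 in single basophil-like cells; right, Cma1 against Mcpt4 in single NK cell-like cells, both as CPM plus 1 on log scales with slight jitter and colored by pool. Cells on an axis had no read of 1 of the genes: 49 basophil-like cells had Mcpt8 alone, and 104 NK cell-like cells had at least 100 CPM of Cma1 without Mcpt4.

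The genotypes were compared first by the share of cells. Basophil-like cells made up 1.69% of WT day 3, 0.193% of WT day 5, 3.01% of Ccr2-/- day 3 and 2.60% of Ccr2-/- day 5. Mcpt8 over all cells of a pool was higher in both Ccr2-/- pools, at 46.9, 16.2, 87.1 and 88.7 CPM. This is not separate from the shares, since basophil-like cells held 96.0% and 93.1% of those reads in the Ccr2-/- pools on day 3 and day 5. In WT day 3 they held 78.5%, and 21.3% lay outside both types. In WT day 5 they held 12.2%, and mast cell-like cells held 83.2%, through 1 cell. Mast cell-like cells made up 0.583% of WT day 3, 0.964% of WT day 5, 2.60% of Ccr2-/- day 3 and 1.49% of Ccr2-/- day 5. Both Ccr2-/- pools were above both WT pools for each type. The mean difference was 1.87 percentage points for basophil-like and 1.27 for mast cell-like cells, with a two-sided exact permutation p = 0.333 for each, the smallest that 2 pools against 2 allow. Ccr2-/- and WT skin also differ in the other cells that make up the total, and a share cannot tell more cells of 1 type from fewer of another.

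Within mast cell-like cells, the summed level of the 5 mast cell proteases differed by less than 2-fold between genotypes on both days. Ccr2-/- was below WT on both days for Mcpt4 (ratios 0.892 and 0.910), Tpsb2 (0.897 and 0.850) and Cpa3 (0.685 and 0.862), and above WT for Cma1 (1.13 and 1.07) and Tpsab1 (1.76 and 1.33). These ratios use summed reads; by the mean over single cells, Ccr2-/- was below WT on day 5 for Cma1 (24397 against 32799 CPM) and Tpsab1 (14143 against 20657 CPM). The medians of single cells were further apart for Tpsb2, at 3674 against 10706 CPM on day 3 and 4375 against 14497 CPM on day 5, and for Cpa3, at 5087 against 12197 CPM and 10564 against 17149 CPM, all lower in Ccr2-/-. Of the 6 members, 1 (Mcpt8) was past 2-fold on day 3, where 47.4% of all genes tested were, and 1 (Mcpt8) on day 5, where 34.2% were. Between days, 1 member (Mcpt8) was past 2-fold in WT, where 54% of genes were, and in Ccr2-/-, where 15.7% were.

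An edgeR quasi-likelihood fit of the summed reads of mast cell-like cells, with day and genotype as terms, called 29 of 9730 genes (0.298%) for genotype and 28 (0.288%) for day at a Benjamini-Hochberg adjusted p under 0.05. No member was called for genotype. The largest estimate among the members was that of Tpsab1, a log2 change of 0.68 ± 0.27 (SE) in Ccr2-/- with adjusted p = 0.750, and it fell to 0.28 without the WT day 5 cell of 289671 reads and to 0.00053 without cells over 100000 reads. For day, Mcpt8 alone was called, at 2.89 ± 0.50 with adjusted p = 2.93e-05. Without the WT day 5 cell that held all Mcpt8 reads of the mast cell-like cells of its pool, the log2 change was −0.59. Leaving out that cell also brought the genes called by edgeR to 6 for genotype and 0 for day, with 227 genes at an unadjusted p under 0.05 for day. The fit has 1 residual degree of freedom, left by the difference between genotypes in their change with day. For Mcpt8 that change was a log2 ratio of 4.97 in WT and 1.17 in Ccr2-/-. No pool has a replicate, so the p-values of the fit do not measure the spread between mice or between replicate pools.

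Within basophil-like cells, Mcpt8 was higher in Ccr2-/- than in WT on day 3, at 8687 against 5516 CPM, and so was Cpa3, at 1390 against 521 CPM. Of the 3 members with enough reads to compare, 2 (Cma1 and Cpa3) were past 2-fold, where 35.4% of all genes tested were. Neither was without the single cell that carried Kit and Cma1: Cpa3 was then 1030 against 521 CPM, a ratio of 1.98, and Cma1 was at 8.52 CPM, under the 50 CPM needed for a comparison. Between Ccr2-/- day 5 and day 3, 1 of 3 was past 2-fold (Cma1, through the single cell above), where 24% of genes were. No WT value for day 5 can be read from 2 cells.

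The related genes of the granule program were set out in lists. Of the other 6 genes of the chymase locus, 5 reached 10 CPM in at least 1 of the types. Cma2 (106 CPM in mast cell-like cells, none in basophil-like), Mcpt1, Mcpt2 and Ctsg were higher in mast cell-like cells, and Gzmb stood at 1293 CPM in basophil-like and 1175 CPM in mast cell-like cells. Without the 3 Mcpt8-high cells that lacked tryptase reads, mast cell-like cells had 469 CPM of Gzmb, 0.599 CPM of Mcpt1 (78.5 CPM with them) and 5.59 CPM of Mcpt2 (43.1 CPM with them), and without the cell that carried Kit and Cma1, basophil-like cells had 1063 CPM of Gzmb. Of the 5 listed genes of the tryptase locus, 3 were in the matrix. Prss34, a basophil tryptase, stood at 469 CPM in basophil-like cells with reads in 14 of the 155 cells, and Tpsg1 at 57.3 CPM in mast cell-like cells. All 6 granule genes reached 10 CPM, with Srgn, the core protein that carries the heparin chains, at 7748 CPM in basophil-like and 3461 CPM in mast cell-like cells, and Hdc, which makes histamine, at 4870 and 3006 CPM. Ndst2, which sulfates heparin, was higher in mast cell-like cells (349 against 75.8 CPM), as was Slc18a2, the amine transporter (439 against 160 CPM). Of 7 receptor genes, Cd200r3 alone was higher in basophil-like cells. Of 4 lineage factors, Gata2 (1372 against 1109 CPM) and Cebpa (162 against 2.95 CPM) were higher in basophil-like cells and Gata1 and Mitf in mast cell-like cells. Cd200r3, Kit, Mrgprb1 and the other marker genes named the clusters and are a description only.

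Across 41 combinations of cell type and pool, which share 1 library, the gene most like Mcpt8 by Pearson correlation of log levels among 6477 genes was Csrp3 (r = 0.93), followed by Il4 (0.93). Mcpt4 and Tpsab1 were most like Rgs13 (0.97) and Mcpt-ps1 (0.97), Tpsb2 like Mcpt4 (0.97), and Cma1 like Tpsb2 with a lower value (0.88). Cpa3 was most like the amine transporter gene Slc18a2 (0.97) and Fcer1a (0.96), the IgE-binding chain of the receptor. Most of the 41 combinations are neither mast cell-like nor basophil-like, so any gene confined to these types can reach a high r. Il4, Slc18a2 and Fcer1a are also among the markers that named the clusters. The correlations are descriptions of 1 set of cells.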

How the data were processed

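Per the labels and the study's methods, skin-infiltrating cells of 4 hashtagged pools were mixed, 10000 cells were loaded, and a cDNA and a hashtag library were made by TAS-Seq on BD Rhapsody. After trimming by Cutadapt, the authors used Bowtie2 to map reads to the mouse transcripts of GRCm38.p6 and deposited counts: reads, not molecules, per gene and barcode, and reads per hashtag. PCR copies therefore count separately. Depth ranged from 3113 to 713596 reads per barcode, and 9 further hashtag columns were not used.

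A barcode went to its leading hashtag if that was at least 3 times the next and it had 10 hashtag reads. Barcodes over 20% mitochondrial reads or under 200 genes were left out, and no doublet caller was run beyond the hashtags. The 2000 most variable genes, without the 6 proteases, gave 30 components and Leiden clusters at resolution 1 (scanpy 1.11.5), named by marker lists. Shares carry Clopper-Pearson intervals. A fold was taken where 1 group reached 50 CPM. Mast cell-like sums were fitted with edgeR (TMM, quasi-likelihood, filterByExpr), and DESeq2 was an alternative. The planned fit asked for 10 cells in every pool, which WT day 3 lacked, so the fit given has no minimum and was added after the cells were counted. The 6 members are the genes named in the rule, and related genes were named at 10 CPM or more. Members, marker lists and gene lists were chosen with earlier results of these data known. Replicate pools do not exist, and transcript positions are from GENCODE M21, not the annotation the authors aligned to.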

Additional observations from a re-analysis of the deposited data

Results flagged for a closer look

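In mast cell-like cells, 2 members moved in opposite directions in the groups compared, and neither difference was tested. The log2 ratio of Mcpt8 in Ccr2-/- over WT was 2.11 on day 3 and −1.69 on day 5, where the WT value came from 1 cell. The log2 ratio of Tpsab1 on day 5 over day 3 was 0.051 in WT and −0.35 in Ccr2-/-.

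Barcodes that entered no comparison also held protease reads, above the limit that a count of 0 allows. The 570 barcodes with several hashtags had 93.6 CPM of Mcpt8, 269.9 of Mcpt4, 299.7 of Cma1, 77.0 of Tpsb2, 113.9 of Tpsab1 and 267.8 of Cpa3. The 760 with few hashtag reads had 26.3 CPM of Mcpt8, 74.99 of Mcpt4, 72.0 of Cma1, 31.7 of Tpsb2, 55.8 of Tpsab1 and 50.8 of Cpa3. The 505 assigned barcodes over the mitochondrial limit had 16.7 CPM of Mcpt8, 33.1 of Mcpt4, 51.5 of Cma1, 3.97 of Tpsb2, 33.9 of Tpsab1 and 17.99 of Cpa3.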

How the results depend on the processing

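The direction of the log2 ratio between basophil-like and mast cell-like cells held for all 6 members under each of the 15 alternatives run, and the share differences kept their sign under all 9. Selecting cells by marker reads gave 164 cells for the basophil gate, of which 125 lay in the basophil-like cluster, and the other 39, with a median of 223906 reads, held 75.02% of the gate's reads. Under that gate Mcpt8 in basophil-like cells was 2142 CPM and Cpa3 213 CPM, the mast cell-like levels were 19599 (Mcpt4), 18467 (Cma1), 5779 (Tpsb2) and 13398 CPM (Tpsab1), and the log2 ratios were 2.90 (Mcpt8), −8.79 (Mcpt4), −10.00 (Tpsab1) and −5.49 (Cpa3). Without the cell with the most reads of the member, an alternative chosen after seeing the data, the ratios were 6.15 (Mcpt8), −12.14 (Mcpt4) and −11.95 (Cma1). Without cells over 100000 reads they were 5.98 (Mcpt8) and −12.05 (Mcpt4), with the mean over cells −11.53 (Mcpt4) and thinned −12.26 (Mcpt4). With a pseudocount of 10 CPM they were −10.66 (Mcpt4), −9.22 (Tpsb2) and −10.53 (Tpsab1). With each pool left out in turn they ranged from 3.84 to 5.17 (Mcpt8), −11.90 to −11.72 (Mcpt4), −12.44 to −7.07 (Cma1, the lowest without Ccr2-/- day 3), −12.00 to −10.50 (Tpsb2), −12.72 to −11.89 (Tpsab1) and −4.43 to −3.32 (Cpa3). In fibroblast-like cells Cma1 was 4.72 CPM without the top cell, 4.84 without a mitochondrial limit and 4.84 with the gate, and Cpa3 was 2.61, 2.80 and 2.80, and 3.27 when thinned.

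The number of genes called for genotype in mast cell-like cells, 29 in the fit given, was 6 without the WT day 5 cell with the most Mcpt8 reads. It was 18 with DESeq2, 12 with the gate, 2 without cells over 100000 reads and 19 when thinned. With genotype alone and no day term it was 0 (edgeR, 620 genes at an unadjusted p under 0.05). With genotype alone and each pool left out it was 25 without WT day 3, 2 without WT day 5, 8 without Ccr2-/- day 3 and 18 without Ccr2-/- day 5. The number called for day, 28, was 0 without that WT day 5 cell (edgeR, 227 at an unadjusted p under 0.05), 6 with the gate, 2 when thinned and 0 without cells over 100000 reads (edgeR, 109 at an unadjusted p under 0.05). The day change of Mcpt8 turned to −1.58 without cells over 100000 reads to −0.59 without the WT day 5 cell and to −0.53 without the top cell of each pool, and it missed the threshold at a hashtag ratio of 10 (2.09), with the gate (3.13) and when thinned (2.01). Tpsab1 for genotype was called once in 19 alternatives, with no filter on low counts (0.75), and its estimate fell to 0.37 without the top Mcpt8 cells, 0.28 without the WT day 5 cell, 0.27 when thinned and 0.00053 without cells over 100000 reads. Without the top Mcpt8 cell of each pool, 38 of 9179 genes were called for genotype and 37 for day. Mcpt8 was among those for genotype (log2 change 6.37), once in 19 alternatives, and Tpsb2 among those for day, once in 14. The cells were left out by their Mcpt8 reads, and in WT day 5 that cell held all of them. The call of Mcpt8 therefore follows from the choice of cells and cannot be read as a difference between genotypes. Both fits that leave out Mcpt8-high cells were chosen after seeing the data, and other causes were not tested. The day term of the fit given compares genotypes within day, and the fit without that term is the one with genotype alone. The days are different conditions and not replicates.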
